A study of Mus musculus with 6 samples.

Results

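The 36 genes described here mark B cells and the lymphoid follicles of the gut wall, and were taken by symbol from a list; each is a row of the deposited gene table with reads in at least 1 sample. They make up 36 of the 20170 genes in the table, and all 36 passed the filter on low counts. By role, 25 are genes of B cells themselves, 1 (Bcl6) is the master regulator of the germinal centre, 7 belong to follicle stroma, lymphotoxin signalling and homing, and 3 to M cells and the epithelium over follicles. The stroma and M cell sets include genes that lymphocytes carry (Cxcr5, Lta, Ltb, Ccr7 and Ccr6). Their medians are thus not of stroma or epithelium alone. RNA came from colon tissue of wild-type C57BL/6J mice. The restraint group (n = 3) received azoxymethane (AOM), dextran sulfate sodium (DSS) and chronic restraint stress, and the control group (n = 3) received AOM and DSS without restraint. All mice were thus given the mutagen AOM, at 10 mg/kg by injection, and the irritant DSS, at 2% in drinking water in 3 rounds, a schedule that produces tumours in the colon. Restraint meant 3 to 4 hours per day in a ventilated 50 mL tube. The labels give no age, no position along the colon, and no statement that each sample is a separate mouse, so the p-values below reflect only how these samples vary, which may be technical.

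B cells recognise antigen through a surface immunoglobulin whose signal is carried by the Cd79a and Cd79b chains. In the colon they gather in isolated lymphoid follicles and colonic patches. Stromal cells of these structures secrete the chemokine Cxcl13, which draws in B cells carrying its receptor Cxcr5, and those B cells return lymphotoxin, which maintains the stroma. The epithelium over a follicle makes the chemokine Ccl20 and contains M cells, which pass luminal antigen to the cells below.

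Total counts were 29690387 to 32783104 per sample in the restraint group and 27160547 to 33017500 in the control group. A limit of 3 counts, which a count of 0 allows, lay between 0.0909 and 0.110 CPM, the read count scaled to library size, and covers counting error only. The labels call the cells colorectal cancer cells and the source colon tissue. All 10 colon epithelium markers were detected, with a summed level of 10836 to 14209 CPM in restraint samples and 12557 to 16803 CPM in control samples, and markers of smooth muscle, T cells and macrophages were present in every sample, so the libraries hold more than epithelium. Keratins of squamous epithelium summed to 2864 CPM in control replicate 3 and to 10.8 to 70.3 CPM in the other 5 samples. On a per-gene chi-square, which is about 1 for sampling noise alone, every pair of samples differed by 41.3 or more.

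Promoters are shown for the members that hold the letters of Spi-B and its relative PU.1, and for Ltb and Madcam1, which hold those of the kappaB site, a target of signals from the lymphotoxin receptor. Promoter windows (250 bases before to 50 after the start, RefSeq, GRCm38.p6) were found for 29 of the 36 members. The letters GAGGAAGT, a core bound by PU.1 and by Spi-B, the product of the member Spib, were sought on both strands and occurred in windows of 4 members (13.8% of 29), Cd72, Cd37, Btla and Fcrl1, and in those of 3.69% of all 27025 genes with a window. The letters GGANTTTCC, a form of the kappaB site, occurred in 3 (10.3%), Ebf1, Ltb and Madcam1, against 1.45% of all genes. The octamer ATTTGCAT, bound by Oct-2, occurred in 1 member window (3.45%), that of Ccr6, against 1.97%. The letters CCCNNGGGA, found in EBF sites, occurred in 2 (6.90%), Cd22 and Madcam1, against 7.48%; in Madcam1 they overlap the kappaB letters, and in Cd22 a match on each strand overlaps the other. The 100 bases before the start follow, on the gene's strand, 5′ to 3′, with the matched letters or their reverse complement in capitals. Cd72 lies on the minus strand at chr4:43454627-43454726, Cd37 on the minus strand at chr7:45238840-45238939, Btla on the plus strand at chr16:45224237-45224336, Fcrl1 on the plus strand at chr3:87376287-87376386, Ltb on the plus strand at chr17:35194407-35194506, and Madcam1 on the plus strand at chr10:79664459-79664558.
Cd72: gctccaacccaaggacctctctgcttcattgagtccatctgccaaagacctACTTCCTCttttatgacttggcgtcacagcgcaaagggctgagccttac
Cd37: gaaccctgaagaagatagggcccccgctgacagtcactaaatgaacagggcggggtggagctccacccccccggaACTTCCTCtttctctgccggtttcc
Btla: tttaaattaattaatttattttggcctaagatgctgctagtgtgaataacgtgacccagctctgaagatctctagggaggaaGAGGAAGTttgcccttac
Fcrl1: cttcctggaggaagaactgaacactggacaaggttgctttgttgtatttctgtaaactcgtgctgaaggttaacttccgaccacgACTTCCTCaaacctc
Ltb: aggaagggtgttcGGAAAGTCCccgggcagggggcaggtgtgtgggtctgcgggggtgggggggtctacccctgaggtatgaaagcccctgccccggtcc
Madcam1: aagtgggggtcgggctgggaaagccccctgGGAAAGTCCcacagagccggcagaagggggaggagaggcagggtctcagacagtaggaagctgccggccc
A match describes these letters in this window and is not a measured binding site.

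All 36 members had a fitted log2 fold change below 0 (restraint minus control), with a median of -1.62 against -0.01 for all 15890 genes tested, and none passed the test. By edgeR's quasi-likelihood test, the adjusted p ran from 0.241 to 0.898 over the members, and 0% of all genes tested passed an adjusted p of 0.05. At an unadjusted p under 0.05 stood 6 members (Blk, Cd83, Pax5, Ebf1, Lta and Ccl20), against 8.82% of all genes tested on the lower side. DESeq2 called 1 member as lower, Cd83, where it called 2.77% of all genes with an adjusted p as lower. The restraint and control samples did not overlap for 2 members, Lta and Ccl20, against 11.2% of all genes tested that were lower without overlap. A share of 2 in 36 lies under that background.

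Control replicates 2 and 3 held the highest and second highest CPM for all 36 members, an order found in 8.16% of all genes tested. Control replicate 1 lay below restraint replicate 1 for 33 members, against 51.3% of all genes tested. Restraint replicate 1 came next, behind control replicates 2 and 3, for 31 members, against 2.68% of all genes tested. Restraint replicate 3 was lowest for 24 members, against 23.7%. The members' median log2 range was 2.80 within the restraint group and 2.20 within the control group, against 0.40 and 0.46 for all genes tested. Both ranges of the members were larger than the size of their median log2 fold change. In bulk tissue, fewer B cells in the piece taken and less RNA per cell cannot be told apart.

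**Figure D1:**
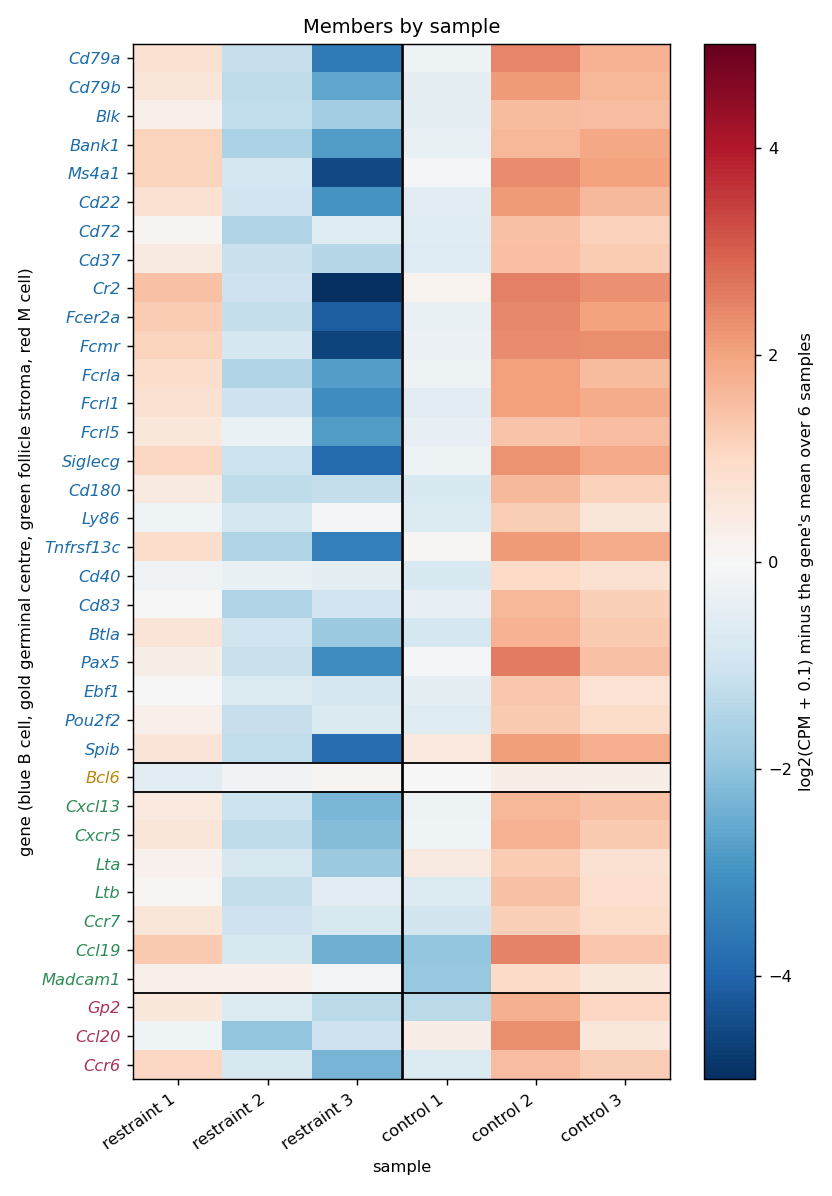
Heat map of log2(CPM + 0.1) minus each gene's mean over the 6 samples, for the 36 members (rows) in restraint replicates 1 to 3 and control replicates 1 to 3 (columns); black lines part the groups and the roles. Control replicates 2 and 3 lie above the gene mean in every row, restraint replicate 3 is the darkest blue for Cr2, Fcmr, Ms4a1 and Fcer2a, and the row of Bcl6 is nearly flat.

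Cd79a, the signalling chain of the B cell receptor, was measured at 41.3, 11.1 and 2.08 CPM in restraint replicates 1, 2 and 3, against 20.5, 133 and 82.6 CPM in control replicates 1, 2 and 3. The groups overlapped, since restraint replicate 1 stood 2.01-fold above control replicate 1, while control replicate 2 held 6.48 times as much as control replicate 1. The log2 fold change was -2.11 ± 1.10 (SE, n = 3 each; edgeR adjusted p = 0.367). Its partner Cd79b was at 28.1, 7.56 and 2.95 CPM in the restraint samples and 13.0, 80.8 and 57.9 CPM in the control samples, the same order. Per unit of length, the FPKM of Cd79b was 0.672 to 0.776 of that of Cd79a in 5 samples and 1.57 in restraint replicate 3. Blk, a Src-family kinase of B cells, had 9.0, 3.16 and 2.21 CPM in restraint samples and 5.46, 22.5 and 21.7 CPM in control samples (log2 fold change -1.79 ± 0.70, edgeR adjusted p = 0.290). Bank1, a scaffold in B cell receptor signalling, was at 10.9, 1.6 and 0.641 CPM in restraint samples against 3.87, 15.9 and 19.2 CPM in control samples, and was 1 of 2 members highest in control replicate 3.

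The 5 members with the largest ratio of restraint replicate 1 to restraint replicate 3 were the surface proteins Cr2, Fcmr, Fcer2a, Ms4a1 and Siglecg. Ms4a1, which encodes CD20, was at 28.1, 7.02 and 0.480 CPM in restraint replicates 1 to 3 and 12.2, 66.8 and 53.2 CPM in control replicates 1 to 3. Cr2, the complement receptor of B cells and follicular dendritic cells, was at 26.2, 4.56 and 0.128 CPM in restraint samples and 10.8, 54.0 and 46.0 CPM in control samples. The lowest of these Cr2 values rests on 4 reads, and restraint replicate 1 held 204 times as much CPM as restraint replicate 3. Fcer2a, the low-affinity IgE receptor CD23, had 437, 75 and 7 reads in the restraint samples and 116, 836 and 757 in the control samples. Fcmr, the IgM Fc receptor, had 2 reads in restraint replicate 3, which is within the counting limit of 3, and 571 and 672 reads in control replicates 2 and 3. Siglecg, an inhibitory lectin, had 10 reads in restraint replicate 3 and Fcrl5, an Fc receptor-like protein, had 3. In each of these genes, the levels of restraint replicate 1 exceeded those of control replicate 1. Their log2 fold changes lay between -1.50 (Fcrl5) and -2.04 (Fcmr), with SEs of 0.93 to 1.38 and edgeR adjusted p of 0.428 to 0.505.

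Cd22, an inhibitory co-receptor, was at 34.2, 10.3 and 2.5 CPM in restraint samples and 13.7, 87.9 and 61.5 CPM in control samples, so that it followed Cd79a closely. Fcrla and Fcrl1, both Fc receptor-like, had log2 fold changes of -1.81 ± 1.02 and -1.91 ± 1.05. The edgeR adjusted p was 0.392 for Fcrla and 0.383 for Fcrl1. Cd37, a tetraspanin, was at 29.1, 9.92 and 7.88 CPM in restraint samples and 13.6, 61.8 and 52.0 CPM in control samples. Here restraint replicates 2 and 3 lay close together, unlike in Cd22.

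A further set of surface genes was higher in restraint replicate 3 than in restraint replicate 2. Ly86 encodes MD-1, the partner of the Cd180 receptor, and is also made by myeloid cells. Ly86 was at 11.4, 7.12 and 12.8 CPM in restraint replicates 1 to 3 and 8.26, 30.8 and 19.9 CPM in control replicates 1 to 3 (log2 fold change -0.91 ± 0.47, edgeR adjusted p = 0.360). Cd72, a lectin that restrains B cell receptor signals, was at 16.1, 5.04 and 9.19 CPM in restraint samples and 9.47, 40.1 and 32.5 CPM in control samples. Cd180 itself was at 1.44 CPM in restraint replicate 2 and 1.54 CPM in restraint replicate 3, a ratio of 1.07. Of the 36 members, 9 were higher in restraint replicate 3 than in restraint replicate 2 (Cd72, Cd180, Ly86, Cd83, Pou2f2, Bcl6, Ltb, Ccr7 and Ccl20). The 11 markers of dendritic cells and macrophages, all detected, summed to 177 CPM in restraint replicate 2 and 421 CPM in restraint replicate 3. Their part in these values was not tested.

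Of the survival and costimulation genes, Tnfrsf13c, the receptor for the survival factor BAFF, was at 11.7, 2.20 and 0.512 CPM in restraint samples and 6.63, 28.6 and 23.3 CPM in control samples. Cd40, which receives T cell help, was at 4.56, 3.96 and 3.65 CPM in restraint samples and 3.02, 10.5 and 8.79 CPM in control samples. The restraint samples were nearly level for Cd40, at 4.06 ± 0.464 CPM, whereas the control samples averaged 7.44 ± 3.92 CPM (SD, n = 3 each). Cd83, an activation marker of B cells and dendritic cells, was at 15.5, 5.36 and 7.88 CPM in restraint samples and 11.4, 48.1 and 34.6 CPM in control samples. It was lower in restraint samples by DESeq2 (adjusted p = 0.0316), but not by edgeR (log2 fold change -1.71 ± 0.60, adjusted p = 0.266), and restraint replicate 1 exceeded control replicate 1. The DESeq2 call held without control replicate 1 or restraint replicate 1, and was lost when any 1 of the other 4 samples was left out. Btla, an inhibitory receptor, was at 14.3, 4.6 and 2.5 CPM in restraint samples and 4.94, 31.3 and 23.0 CPM in control samples.

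Pax5, the factor that commits cells to the B lineage, had the most negative fitted change of the members. It was at 3.03, 1.08 and 0.192 CPM in restraint samples, against 2.36, 15.3 and 6.96 CPM in control samples, with a log2 fold change of -2.51 ± 1.01 (edgeR adjusted p = 0.295). Control replicate 2 alone held 423 of its reads. Ebf1, an early B lineage factor that stromal cells also express, had a smaller spread, at 5.33, 3.29 and 2.85 CPM in restraint samples and 3.72, 13.5 and 8.82 CPM in control samples (log2 fold change -1.18 ± 0.49, edgeR adjusted p = 0.298). Pou2f2, the octamer factor Oct-2, was at 2.91, 1.02 and 1.44 CPM in restraint samples and 1.55, 6.10 and 4.62 CPM in control samples. Spib, which acts in B cells and is required in M cells, was at 22.7, 6.09 and 0.929 CPM in restraint samples and 20.6, 61.7 and 51.3 CPM in control samples. Control replicate 1 and restraint replicate 1 were thus nearly equal in Spib, where Cd79a differed between them 2.01-fold.

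**Figure D2:**
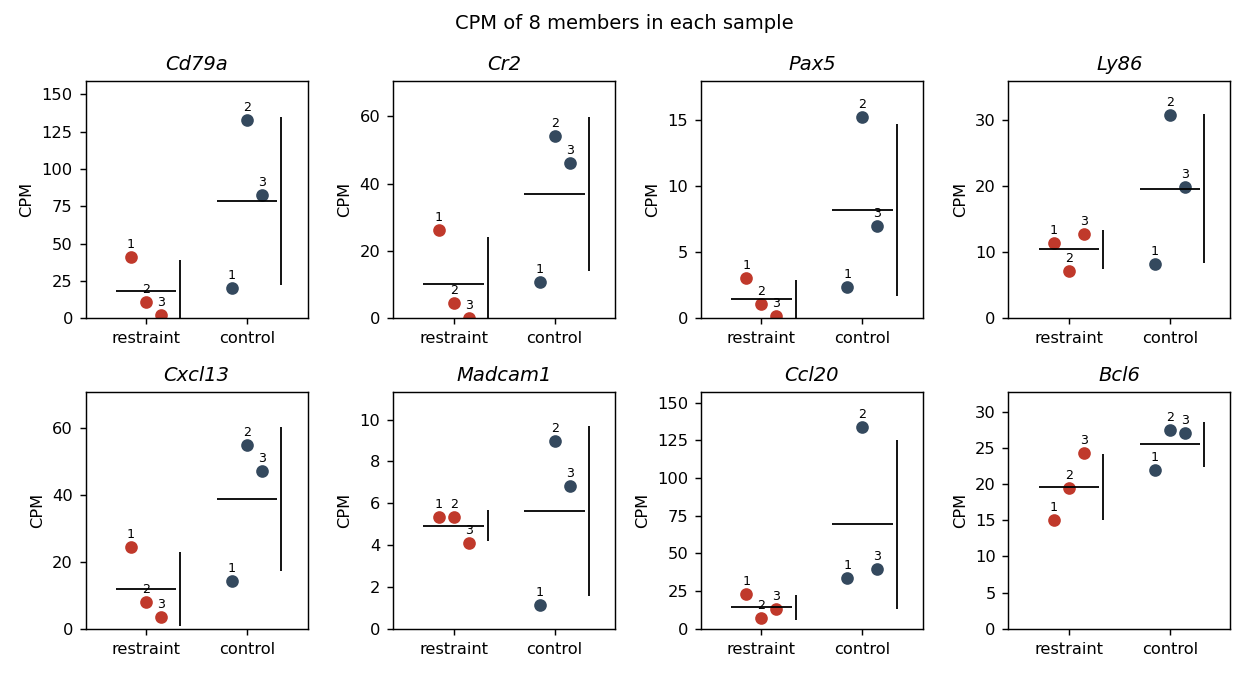
CPM of Cd79a, Cr2, Pax5, Ly86, Cxcl13, Madcam1, Ccl20 and Bcl6 in each restraint (red, left) and control (dark, right) sample, with the replicate number over each point; horizontal lines are group means and vertical lines ± 1 SD, stopped at 0 where they would pass below it. The groups overlap in every panel but that of Ccl20, and the control point numbered 1 lies far below the other 2 for Cd79a, Cr2, Cxcl13 and Madcam1.

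Bcl6, the repressor that drives the germinal centre programme and is also expressed in other cells, stood apart from the B cell genes. It was at 15.1, 19.4 and 24.3 CPM in restraint samples and 21.9, 27.5 and 27 CPM in control samples, a log2 fold change of -0.38 ± 0.20 (edgeR adjusted p = 0.366). Restraint replicate 1, which followed control replicates 2 and 3 for most members, was lowest for Bcl6. Restraint replicate 3, where Cr2 had 4 reads, held 758 reads of Bcl6. Of 14 further germinal centre genes, 12 could be tested, of which 0 passed in edgeR, 11 had a log2 fold change below 0, and the median was -0.76. At an unadjusted p under 0.05 stood 3, all lower, against 8.82% of all genes tested on the lower side. Gcsam is a germinal centre adaptor and Rgs13 a regulator of chemokine signalling. Gcsam was at 2.05, 0.734 and 0.545 CPM in restraint samples and 1.77, 7.4 and 3.89 CPM in control samples (log2 fold change -1.96 ± 0.70, edgeR adjusted p = 0.265). Rgs13 was at 1.47, 0.319 and 0.192 CPM in restraint samples and 1.03, 6.64 and 3.04 CPM in control samples (log2 fold change -2.42 ± 0.94, edgeR adjusted p = 0.286). For both, control replicate 1 lay below restraint replicate 1, and control replicates 2 and 3 were the highest samples. Fas, the death receptor of germinal centre and many other cells, had a log2 fold change of -0.47 ± 0.22.

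The 7 genes of follicle stroma, lymphotoxin and homing, lymphocyte genes among them, had a median log2 fold change of -1.45. Their median log2 range was 2.14 within the restraint group and 2.12 within the control group. Cxcl13 was at 24.3, 8.04 and 3.46 CPM in restraint samples and 14.4, 54.8 and 47.1 CPM in control samples, with a log2 fold change of -1.70 ± 0.79 (edgeR adjusted p = 0.333). Its receptor Cxcr5 was at 13.1, 3.51 and 1.83 CPM in restraint samples and 7.45, 29.2 and 21.8 CPM in control samples (log2 fold change -1.66 ± 0.81). The chemokine and its receptor therefore ranked all 6 samples alike, in an order shared with B cell members such as Cd79a, Cd79b, Cd22 and Cr2. Lta, a lymphotoxin subunit, was at 2.76, 1.31 and 0.577 CPM in restraint samples and 3.28, 5.92 and 4.08 CPM in control samples, without overlap (log2 fold change -1.51 ± 0.57, edgeR adjusted p = 0.277). Ltb, the subunit that anchors lymphotoxin to the membrane, was at 13.4, 5.42 and 8.39 CPM in restraint samples and 7.63, 34.9 and 22.3 CPM in control samples. The groups overlapped for Ltb, since restraint replicates 1 and 3 lay above control replicate 1.

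Ccr7, the receptor that guides T cells and dendritic cells into lymphoid tissue, was at 6.4, 1.98 and 2.31 CPM in restraint samples and 2.17, 9.67 and 7.85 CPM in control samples. Ccl19, its ligand, had 95, 19 and 4 reads in restraint samples and 6, 187 and 100 reads in control samples. Control replicate 1 and restraint replicate 3 were both close to the counting limit for Ccl19. Madcam1, the vessel adhesion molecule that admits lymphocytes to the gut, did not follow this order. It was at 5.36, 5.36 and 4.10 CPM in restraint samples and 1.14, 8.98 and 6.81 CPM in control samples, a log2 fold change of -0.19 ± 0.65 (edgeR adjusted p = 0.898). The value in control replicate 1 lay below all 5 others. Without control replicate 2 the log2 fold change of Madcam1 was 0.31, in the opposite direction, and limma-voom also gave it a positive sign. Per unit of length, the FPKM of Madcam1 was 0.121, 0.453 and 1.84 times that of Cd79a in restraint samples, against 0.0518, 0.0631 and 0.0771 times in control samples. This ratio was chosen after the values were seen and was not tested.

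Of 17 further genes of follicle stroma and lymphotoxin signalling, 15 were in the table and tested, and 0 passed in edgeR. Of the 15, 11 had a log2 fold change below 0, and the median was -0.07. An unadjusted p under 0.05 was found for 2, each lower, against 8.82% of all genes tested on the lower side. Tnfsf11, the cytokine RANKL that induces M cells, was at 2.24, 1.82 and 1.31 CPM in restraint samples and 4.72, 11.0 and 5.17 CPM in control samples. It was lower in restraint samples by DESeq2 (adjusted p = 0.00105) but missed the threshold in edgeR (log2 fold change -1.96 ± 0.43, adjusted p = 0.191), and the groups did not overlap. Tnfsf13b, which encodes BAFF, was at 9.80 ± 1.41 CPM in restraint samples and 13.6 ± 1.20 CPM in control samples (SD, n = 3 each; log2 fold change -0.47 ± 0.19, edgeR adjusted p = 0.290). Mfge8, a secreted product of follicular dendritic cells and of phagocytes, and Vcam1, an adhesion molecule, had log2 fold changes of -0.76 ± 0.35 and -0.79 ± 0.38.

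Ccl20, a chemokine made by epithelium over follicles, had the smallest p of the members, though bulk tissue does not show which cells made it. It was at 23.2, 6.92 and 13.0 CPM in restraint samples and 33.9, 134 and 39.8 CPM in control samples. Every restraint value lay below every control value, and control replicate 2 was far above the other 5 samples. The log2 fold change was -2.27 ± 0.68 (edgeR adjusted p = 0.241; DESeq2 adjusted p = 0.0597), and -1.36 without control replicate 2. Its receptor Ccr6, carried by B cells among others, was at 5.15, 1.37 and 0.416 CPM in restraint samples and 1.51, 7.29 and 5.99 CPM in control samples (log2 fold change -1.09 ± 0.93, edgeR adjusted p = 0.552). Ligand and receptor thus differed in order, since control replicate 1 lay above restraint replicate 1 for Ccl20 and below it for Ccr6. Gp2, the uptake receptor of mature M cells, had 62, 24 and 14 reads in restraint samples and 12, 128 and 89 reads in control samples (log2 fold change -1.31 ± 0.87, edgeR adjusted p = 0.449).

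Of 12 further M cell genes, 11 were in the table and tested, with 0 passing in edgeR, 6 below 0 and 5 above 0, and a median of -0.32. An unadjusted p under 0.05 was found for 3, of which 2 were lower, against 8.82% of all genes tested on the lower side. Tnfrsf11b, the RANKL decoy receptor osteoprotegerin, which limits M cell formation, was at 83.1, 122 and 128 CPM in restraint samples and 13.0, 50.6 and 59.9 CPM in control samples. It was higher in restraint samples by DESeq2 (adjusted p = 0.0443), not by edgeR (log2 fold change 1.43 ± 0.53, adjusted p = 0.277), without overlap of the groups. Sox8, a transcription factor of maturing M cells, had a log2 fold change of -1.40 ± 0.57. Its level was 0.398, 0.511 and 1.15 CPM in restraint samples and 1.14, 2.85 and 1.46 CPM in control samples. Prnp, the prion protein, which has been used as an M cell marker, and Tnfrsf11a, which encodes the RANKL receptor RANK, had log2 fold changes of -0.54 ± 0.16 and -0.55 ± 0.25.

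**Figure D3:**
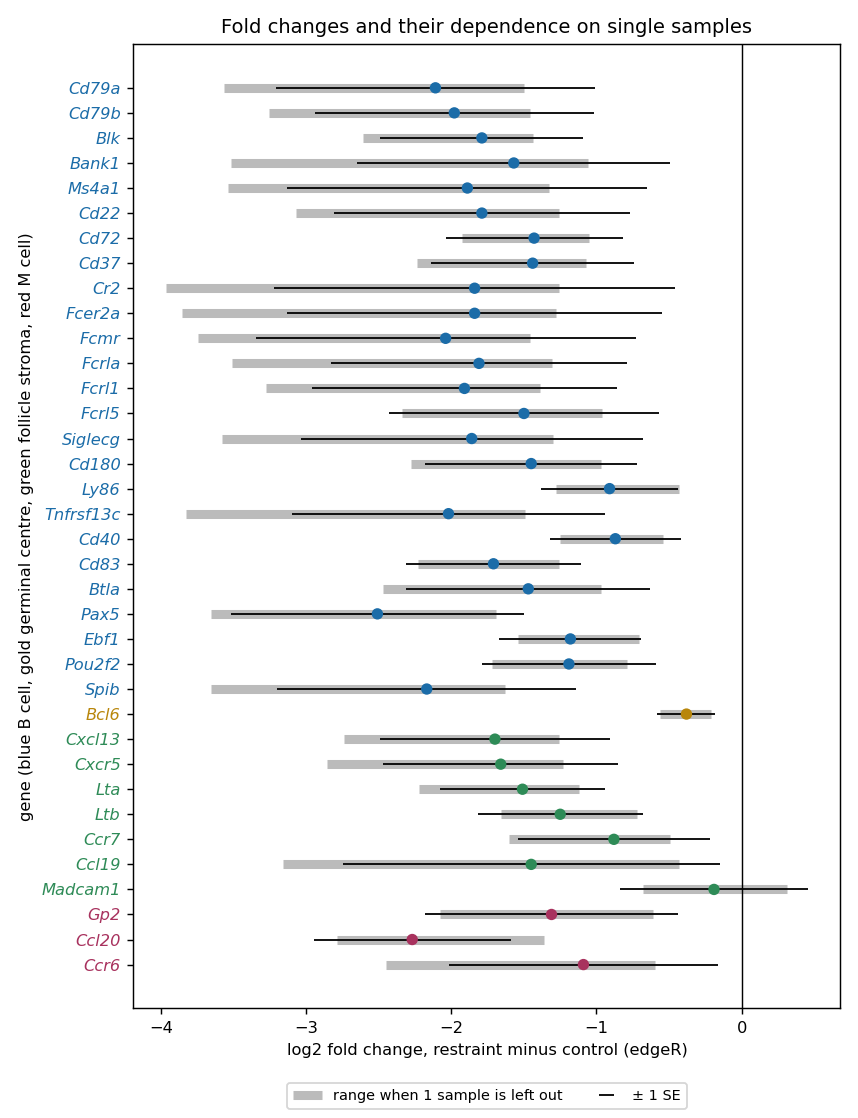
Fitted log2 fold change (restraint minus control) of each member, with ± 1 SE as thin lines and, in grey, the lowest and highest value when any 1 of the 6 samples is left out; point colour marks B cell, germinal centre, follicle stroma and M cell genes. Every point lies below 0, the grey bars of Cr2 and Fcer2a reach -3.97 and -3.86, and that of Madcam1 crosses 0.

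Of 20 further B cell genes, 17 were in the table and tested, with 0 passing in edgeR, 15 below 0 and a median of -0.60. At an unadjusted p under 0.05 stood 4, all lower, against 8.82% of all genes tested on the lower side. The 4 of smallest p were Syk, Bach2, Btk and Tlr9. Syk, a kinase of B cell receptor signalling that other cells also use, was at 118 ± 17.1 CPM in restraint samples and 179 ± 33 CPM in control samples (SD, n = 3 each; log2 fold change -0.60 ± 0.17, edgeR adjusted p = 0.228). Btk, a kinase of the same pathway, was at 8.12, 3.19 and 3.78 CPM in restraint samples and 5.60, 17.1 and 13.7 CPM in control samples. Bach2, a transcriptional repressor, and Tlr9, a receptor for microbial DNA, had log2 fold changes of -0.96 ± 0.35 and -1.51 ± 0.62.

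Per unit of length, which allows levels of different genes to be set side by side, Cd79a, Ccl20, Cd79b, Cd37 and Cxcl13 held the 5 highest FPKM values among the members in restraint replicate 1 and in all 3 control samples. Their highest FPKM was 31.0 in restraint replicate 1 and 170, for Ccl20, in control replicate 2. In restraint replicate 3 the 5 highest were Ccl20 (17.0), Ly86 (13.6), Ltb (8.06), Bcl6 (7.77) and Cd72 (6.43), and Cd79a was at 1.65 FPKM. The FPKM of all members together was 281, 94.3 and 84.7 in restraint replicates 1 to 3, against 165, 820 and 523 in control replicates 1 to 3.

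Other lymphoid and myeloid markers moved with the members in part. The summed CPM of the 9 T cell markers in the table was 35.5, 18.9 and 35.2 in restraint samples and 34.1, 94.6 and 45.9 in control samples, with all 9 fitted below 0 and a median log2 fold change of -0.98. The 10 plasma cell markers summed to 1351, 988 and 1058 CPM in restraint samples and 1098, 3038 and 1357 CPM in control samples. Of these, 8 were fitted below 0, and the median log2 fold change was -1.09. The 11 dendritic cell and macrophage markers summed to 192, 177 and 421 CPM in restraint samples and 134, 440 and 215 CPM in control samples. Here 6 were fitted below 0, with a median of -0.03. Control replicate 2 was highest in all 3 lists, while control replicate 3 stood out less than it did for the B cell members, which summed to 377, 110 and 64.5 CPM in restraint samples and 190, 953 and 726 CPM in control samples. The 9 smooth muscle markers summed to 3575, 4179 and 2553 CPM in restraint samples and 7595, 5640 and 7673 CPM in control samples, without overlap. In edgeR 0 markers of these 4 lists passed (smallest adjusted p = 0.191). At an unadjusted p under 0.05 stood 1 T cell marker and 9 smooth muscle markers, all lower, against 8.82% of all genes tested on the lower side. DESeq2 called 8 of the 9 smooth muscle markers as lower, where it called 2.77% of all genes with an adjusted p as lower. Control replicates 1 and 3 had smooth muscle sums of 7595 and 7673 CPM and B cell member sums of 190 and 726 CPM. Since the smooth muscle sums also parted the groups, the level of these markers and restraint cannot be told apart here. Whether the sums reflect how much muscle a piece held was not tested. The 5 lymphatic endothelium markers in the table had a median of -0.59 (4 of 5 below 0) and the 3 fat markers tested 0.53. The part of these tissues in the members' values was not tested.

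**Figure D4:**
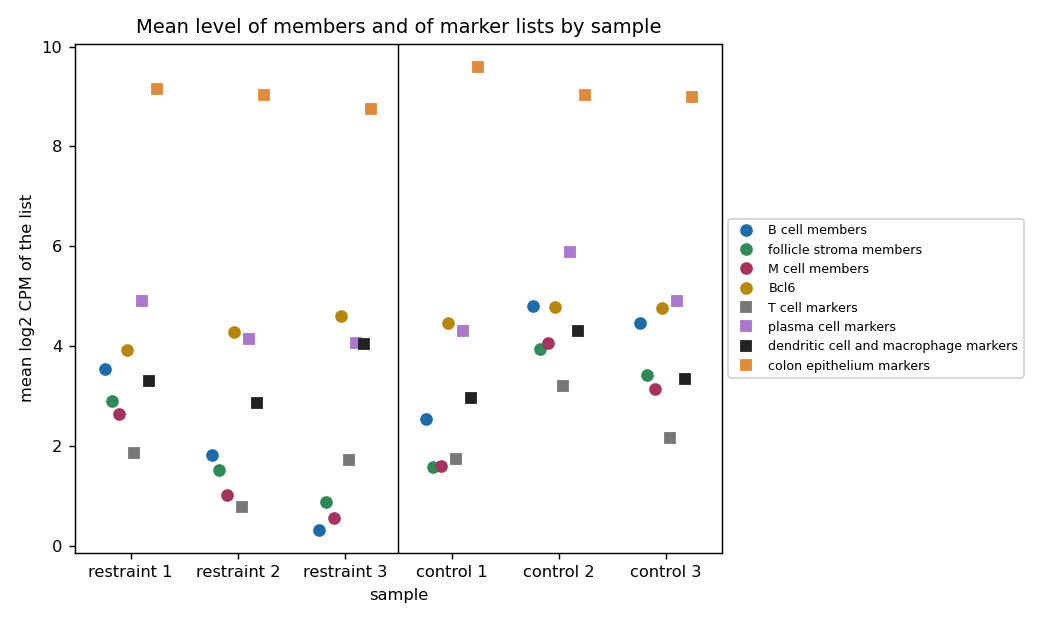
Mean log2 CPM of the B cell, follicle stroma and M cell members and of Bcl6 (circles), and of T cell, plasma cell, dendritic cell and macrophage, and colon epithelium markers (squares), in restraint replicates 1 to 3 and control replicates 1 to 3. The B cell members range from 0.32 in restraint replicate 3 to 4.81 in control replicate 2, while the epithelium markers stay between 8.76 and 9.59.

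Single samples decided how large the difference appeared. Without restraint replicate 1, the restraint sample in which most of these genes were highest (not Bcl6, Ly86 or Madcam1), the median log2 fold change of the members was -2.68. Leaving out any 1 of the other 5 samples gave medians from -2.03 (without control replicate 1) to -1.24 (without restraint replicate 3). In edgeR 0 members passed in any of these 6 fits. DESeq2 called 19 members as lower without restraint replicate 1, where it called 4.8% of all genes as lower. It called 11 without control replicate 1, where it called 3.19% of all genes as lower. Those 11 were Blk, Cd72, Cd37, Cd180, Ly86, Cd40, Cd83, Pax5, Ebf1, Ltb and Ccl20. It called 0 without restraint replicate 2, restraint replicate 3 or control replicate 2, and 1, Ccl20, without control replicate 3. The DESeq2 fits with a sample left out were chosen after seeing the data.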

How the data were processed

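The authors deposited 1 table with whole-number read counts per gene and FPKM values (scaled to gene length and library size) for each of 6 samples, per the file headers. Tools listed in the submitters' processing notes include HISAT2 2.1.0 and featureCounts 1.6.2, with the build GRCm39 and no role or order for any. Neither the annotation nor the strand setting is stated there, so reads of antisense partners cannot be separated. Columns were matched to samples by title, and replicates are numbered in accession order, which pairs nothing.

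All 20170 genes entered 1 fit per setting: filterByExpr (15890 kept), TMM scaling and the quasi-likelihood test of edgeR 4.0.16 (R 4.3.3), restraint against control, with Benjamini-Hochberg adjustment over all genes tested and a threshold of 0.05. The SE is the absolute log2 fold change over the square root of F. CPM are TMM-scaled, and mean log2 CPM used a prior count of 2. DESeq2 1.42.0, limma-voom (limma 3.58.1), other scalings, no filter and each sample left out were alternatives. A simulation with genes drawn independently checked only that the fits returned known larger fold changes. It set no condition on the number of genes called. Deposited FPKM served to compare levels between genes and to describe the members' highest and summed level in each sample. They entered no test and were not TMM-scaled. Every member is named; of each further list the text gives counts and up to 4 genes of smallest p, and for marker lists summed levels. The members and lists were chosen with earlier results of these data known. Promoter sequences are RefSeq's on GRCm38.p6; no gene coordinates on GRCm39 are given. Some listed genes (Ighm, Ighd and Igkc among them) are not analysed here, and some genes of the lists are counted but not reported singly.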

Additional observations from a re-analysis of the deposited data

How the results depend on the processing

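Across all genes, 0 passed in edgeR and in limma-voom (2644 and 2591 at an unadjusted p under 0.05), under every scaling and filter and without each sample in turn, while 798 passed in DESeq2. The count of members was 0 in the same fits and 1 in DESeq2. With DESeq2 and 1 sample left out, a combination chosen after seeing the data, 1343 genes were called and 19 members were lower without restraint replicate 1, and 732 genes and 11 members without control replicate 1. Called genes numbered 342 without restraint replicate 3, 835 without control replicate 2 and 884 without control replicate 3; members called ran from 0 to 19 and genes from 289 to 1343 over the 6 fits. The members' median log2 fold change lay between -1.88 and -1.61 under other scalings, filters and tools, and between -2.68 and -1.24 without single samples, in edgeR as in DESeq2. Directions held for all members but Madcam1, whose log2 fold change was 0.31 without control replicate 2 in edgeR and 0.31 in DESeq2, and 0.21 in limma-voom, with a range from -0.68 to 0.31 over the samples left out. The causes were not tested. No paired analysis was possible because the labels give no replicate number shared between groups. Depth limits Fcmr and Fcrl5 in restraint replicate 3, with 2 and 3 reads.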
